A study of Mus musculus with 6 samples.

Results

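Chemokines are small secreted proteins that steer the movement of leukocytes, and chemokine receptors are the G protein-coupled receptors through which cells sense them. The members described here were every row of the deposited count table whose gene name begins with Ccl, Cxcl, Cx3cl, Xcl, Ccr, Cxcr, Cx3cr, Xcr or Ackr followed by a number and at most 1 letter. This gave 67 of 54532 rows, with 61 different names. They comprised 45 rows of ligands, 18 of receptors and 4 of atypical receptors. The names chose the members, and no measured value did. RNA was taken from mouse abdominal aorta on day 7 after induction of an aneurysm, in which the vessel wall bulges outward. There were 3 libraries from Olfr2 KO mice, which lack the olfactory receptor gene Olfr2, and 3 from WT mice, and induction was common to all 6. The sources used here do not give strain, age, sex, the way the aneurysm was induced, the kind of knockout allele or whether animals were pooled. The p-values therefore measure the spread between libraries, which may be technical.

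Chemokines are grouped by the spacing of their leading cysteines into the CC, CXC, CX3C and XC families, and the receptors are named after the family they bind. Inflammatory chemokines are switched on in injured tissue by cytokines such as interferons, tumour necrosis factor and interleukin-1, while homeostatic chemokines guide lymphocytes and stem cells through lymphoid organs and marrow. In the aneurysmal aorta the family is best known for bringing monocytes, T cells and neutrophils into the vessel wall. Atypical receptors bind chemokines without the usual G protein signal, and some of these receptors remove chemokines from the tissue.

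The spacing that names each family can be read in the coding sequence. The stretches below come from GENCODE mouse release 21 transcripts on GRCm38, run 5′ to 3′ on the coding strand, and carry the cysteine codons in capitals. They were chosen to show 1 or more ligands of each family, with those that the later comparisons turn on.
Xcl1: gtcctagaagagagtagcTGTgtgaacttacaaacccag
Ccl5: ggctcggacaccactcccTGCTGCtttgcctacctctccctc
Ccl22: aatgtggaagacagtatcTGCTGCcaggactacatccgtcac
Cxcl9: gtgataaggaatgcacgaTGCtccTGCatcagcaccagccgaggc
Cxcl10: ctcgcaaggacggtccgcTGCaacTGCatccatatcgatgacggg
Cxcl11: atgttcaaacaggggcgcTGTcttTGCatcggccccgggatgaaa
Cx3cl1: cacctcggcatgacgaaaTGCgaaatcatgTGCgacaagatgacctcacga
The cysteine codons of Ccl5 (chr11:83529224-83529265, minus strand) and Ccl22 (chr8:94746916-94746957, plus strand) are adjacent. Those of Cxcl9 (chr5:92326824-92326868), Cxcl10 (chr5:92348163-92348207) and Cxcl11 (chr5:92361282-92361326), all on the minus strand, stand 1 codon apart. In Cx3cl1 (chr8:94778033-94778083, plus strand) they are separated by 3 codons, and Xcl1 (chr1:164932957-164932995, minus strand) has a single cysteine codon at this place.

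Promoters were read from the RefSeq table on GRCm38.p6, which matched 45 of the 61 names with 52 promoters. Those of Cxcl10 and Cxcl9 are shown because these neighbouring genes are both known as interferon-induced ligands of Cxcr3. They were picked with their values below known, and a link between promoter letters and those values was not tested. Each run holds the 250 bases before the start site, 5′ to 3′ on the strand of the gene. Capitals mark the core of the interferon-stimulated response element (ISRE, read as GAAA, any 2 bases, GAAA), the kB consensus that NF-kB binds, and the CCAAT box (CCAAT), searched on both strands.
Cxcl10: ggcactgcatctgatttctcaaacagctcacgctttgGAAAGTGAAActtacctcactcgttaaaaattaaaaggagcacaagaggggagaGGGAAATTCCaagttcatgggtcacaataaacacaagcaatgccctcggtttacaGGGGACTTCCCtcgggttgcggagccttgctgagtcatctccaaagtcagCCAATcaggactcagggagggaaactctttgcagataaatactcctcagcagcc
Cxcl9: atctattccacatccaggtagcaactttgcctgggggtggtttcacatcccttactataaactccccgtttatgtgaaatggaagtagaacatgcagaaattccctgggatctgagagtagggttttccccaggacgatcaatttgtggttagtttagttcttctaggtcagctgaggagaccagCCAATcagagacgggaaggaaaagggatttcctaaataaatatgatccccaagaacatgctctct
The Cxcl10 run (chr5:92348890-92349139, minus strand) holds an ISRE core, a kB match and a further place where kB matches overlap each other. In the Cxcl9 run (chr5:92328080-92328329, minus strand) neither ISRE letters nor the kB consensus occur, and a CCAAT box is present in both runs. Over the same 250 bases the ISRE core occurs in 2.98% of all 32851 promoters and in 3 of the 52 member promoters, those of Cxcl10, Ccl19 and Cxcl14. The kB consensus occurs in 7.25% of all promoters and in 11 of the 52 member promoters, or 21.2%. The GAS motif bound by interferon-activated STAT proteins (TTC, any 3 bases, GAA) occurs in 7.02% of all promoters and 5.77% of member promoters, and neither run above was found to hold it. The TATA box (TATAAA) occurs in 12.4% and 26.9%. The CCAAT box occurs in 33.8% of all promoters and 32.7% of member promoters. A match is a string of letters and not a measured binding site.

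The neutrophil-attracting ligands Cxcl1, Cxcl2 and Cxcl3, which lie in the same cluster on chromosome 5, hold the same 10 letters of the kB consensus, given in capitals below.
Cxcl1: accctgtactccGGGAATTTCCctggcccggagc
Cxcl2: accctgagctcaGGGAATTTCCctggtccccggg
Cxcl3: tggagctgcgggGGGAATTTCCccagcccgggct
The runs lie at chr5:90891162-90891195, chr5:90903790-90903823 and chr5:90786016-90786049, all on the plus strand of GRCm38.p6. The match begins 71, 97 and 73 bases before the start of Cxcl1, Cxcl2 and Cxcl3.

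Library totals lay between 17248918 and 21872027 gene counts. Olfr2 itself had 0 counts in every library of both genotypes, which allows up to 3 counts a library, so it does not check the genotype labels. Values are given as CPM, counts scaled to library size by TMM factors. The 9 smooth muscle markers summed to 1766 to 2744 CPM in KO against 1006 to 1514 CPM in WT. Of these 9, 8 were higher in KO at an unadjusted p under 0.05, against 5.23% of all genes tested. Endothelial markers summed to 553 to 802 CPM over both groups. Libraries differed in other tissues as well. A list of 8 skeletal muscle genes summed to 1097 CPM in KO replicate 3 and to at most 20.3 CPM in the others. The 10 white adipocyte genes summed to 1804 to 2726 CPM in KO, 408 and 428 CPM in WT replicates 1 and 2 and 1634 CPM in WT replicate 3. The 9 B cell and plasma cell genes summed to 3245 CPM in WT replicate 3 and to 264 to 486 CPM elsewhere. The part of these tissues and cells in the member values was not tested. These lists, and the lists of other genes below, were chosen with earlier results of these data known.

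Comparing KO with WT asks which of these signals of leukocyte traffic differ in the aneurysm where Olfr2 is missing. Of the 67 rows, 51 had enough counts to be tested, 29 of ligands and 22 of receptors. By edgeR's quasi-likelihood test with adjustment over 16237 genes, 0 members passed an adjusted p of 0.05, against 0.0123% of all genes, and the smallest adjusted p of a member was 0.121. At an unadjusted p under 0.05 there were 9 members with lower values in KO, against 6.08% of all genes tested, and 3 with higher values, against 5.23%. The 9 included the receptors Ccr7, Cxcr3, Cxcr6 and Ccr8 and the ligands Cxcl10, Ccl22, Cxcl11 and Ccl5. The 3 were the receptors Cxcr1 and Ccr10 and a row of the ligand Ccl21a. All KO libraries lay below all WT libraries for 7 of the 51, against 9.01% of all genes, and above them for 4, against 7.83%. A lower fitted value in KO was seen for 33 of the 51, against 48.8% of all genes. The median log2 fold change was -0.11 over ligands and -0.30 over receptors, against 0.006 over all genes tested. A test with DESeq2 called 5 members, Ccr7, Cxcl10, Cxcr3, Ccl22 and Cxcl11, all lower, where it called 2.89% of all genes. With no filter on low counts edgeR called 9 members and 2.18% of all genes. With the replicates numbered 3 left out of both groups it called 2 members and 1.26% of all genes.

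**Figure D1:**
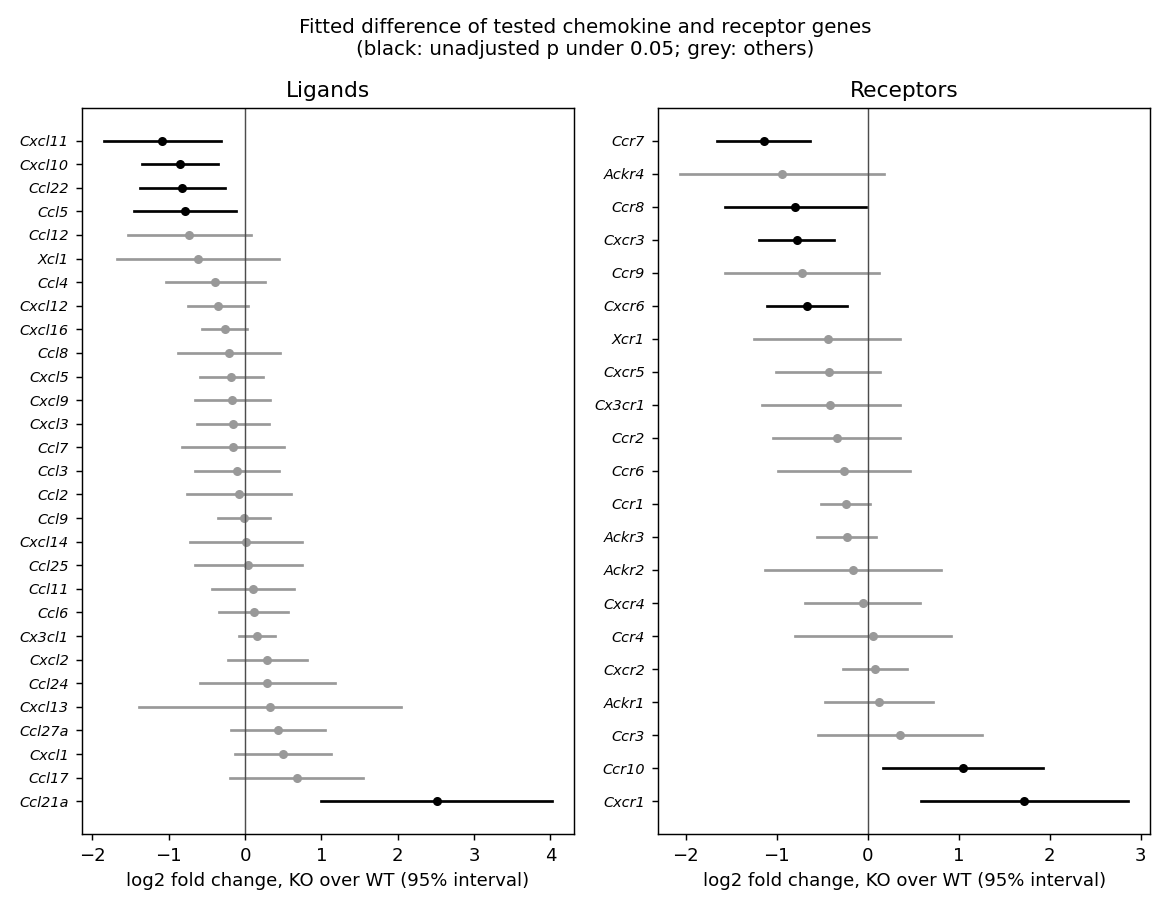
Log2 fold change of KO over WT (horizontal axis, with 95% interval) for tested ligands (left panel) and receptors (right panel), black where the unadjusted p was under 0.05. Ccr7 lies lowest among receptors at -1.14, and the Ccl21a row highest among ligands at 2.51 with a wide interval.

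Summed over all ligands, the counts came in replicates 1 to 3 to 4184, 4753 and 4674 CPM for KO and to 5277, 6182 and 4963 CPM for WT. All KO sums lay below all WT sums. Receptors summed to 1110, 1356 and 993 CPM in KO and 1585, 1559 and 1222 CPM in WT, and here KO replicate 2 lay above WT replicate 3. A single gene, Cxcl12, supplied 40.9 to 53.0% of the ligand counts of a library, so the ligand sums lean on that gene. Gene by gene, 2 of the 29 tested ligands had all KO libraries below all WT libraries, against 9.01% of all genes. Another 2 had them above, against 7.83%.

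Levels of different genes were compared per kilobase of exon. By that measure Ccl8 was the most abundant ligand at 430 CPM per kilobase over both groups, ahead of Cxcl12 at 290.2, Ccl6 at 176 and Ccl7 at 125. Cxcl10, Ccl5, Cxcl5 and Ccl9 followed at 105 to 122. Cxcr4, at 85.7 CPM per kilobase, and Ccr2, at 63.1, led the receptors, followed by Ccr1 at 48.1. Receptors of lymphocyte subsets such as Ccr6, Ccr4 and Ccr8 lay between 0.913 and 1.87.

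**Figure D2:**
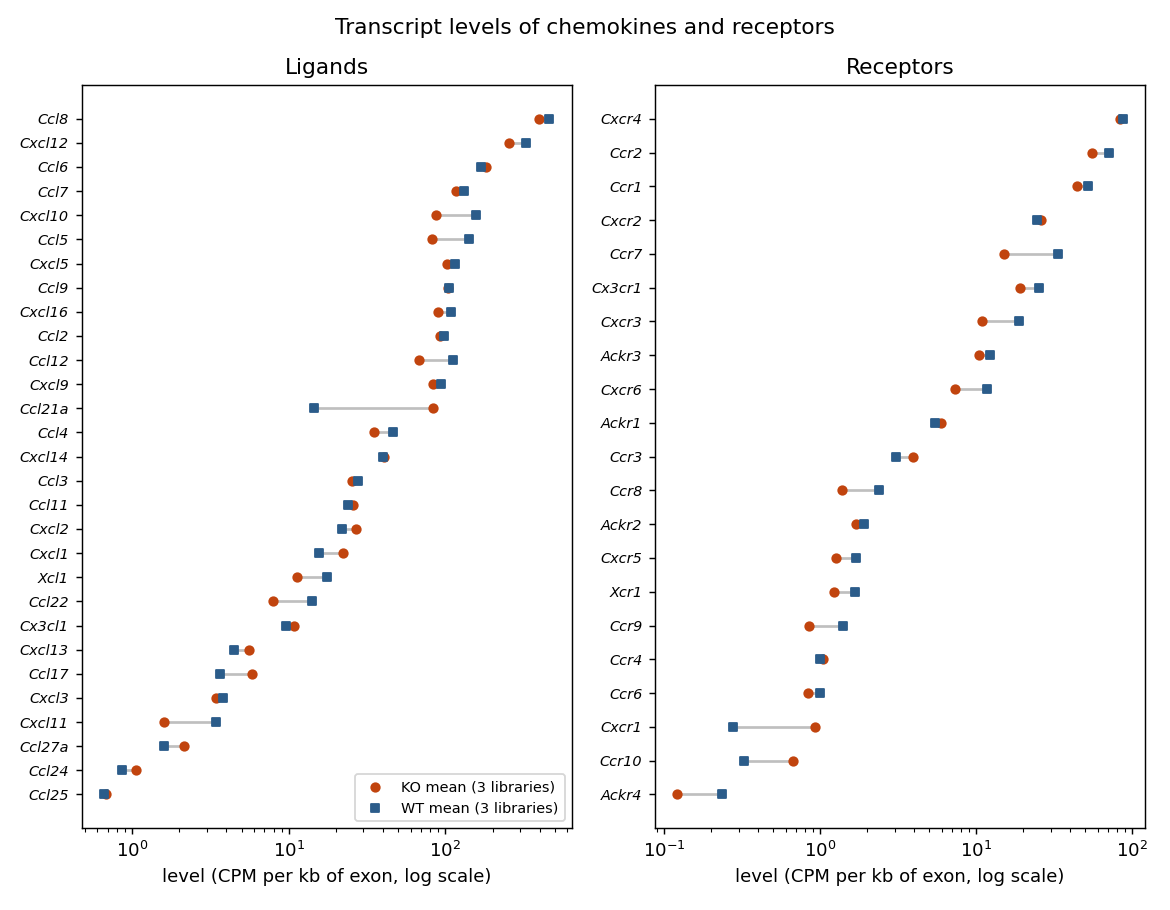
Mean level in KO (circles) and WT (squares) of tested members, in CPM per kilobase of exon on a log axis, ordered by the mean of both. Ccl8 and Cxcl12 stand at the top of the ligands and Cxcr4 and Ccr2 at the top of the receptors, and most pairs of symbols lie close together.

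Ccr7 is the receptor by which mature dendritic cells and naive T cells enter lymphatics and lymph nodes. It had the smallest p of all members (ENSMUSG00000037944, chr11:99144196-99155077, minus strand, GRCm38, protein-coding). Replicates 1 to 3, in this order here and below, read 33.4, 21.2 and 35.2 CPM in KO and 68.6, 49.2 and 80.9 CPM in WT. All KO libraries were below all WT libraries. Mean CPM was 30.0 ± 7.61 for KO and 66.2 ± 16.0 for WT (SD, n = 3 each). KO over WT gave a log2 fold change of -1.14 (SE 0.23, 95% interval -1.66 to -0.63; edgeR adjusted p = 0.121), which did not pass. With each library left out in turn it lay between -1.32 and -0.94. The 9 dendritic cell markers summed to 257 to 342 CPM in KO and 363 to 592 CPM in WT, and none was at 0 in every library. The largest part of each sum was Fscn1, at 111, 146 and 123 CPM in KO and 186, 209 and 328 CPM in WT. All KO libraries lay below all WT libraries for 4 of the 9, against 9.01% of all genes. Of the 9 tested, 4 had lower values at an unadjusted p under 0.05, against 6.08% of all genes. Among the others, Zbtb46 stood at 0 (SE 0.14) and Clec10a at -0.23 (SE 0.24) on the log2 scale. The part of that list in the Ccr7 value was not tested. In bulk tissue, fewer cells of a type and less RNA per cell cannot be told apart, and this holds for every value here.

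The Ccr7 ligands are Ccl19 and Ccl21, which stromal cells and lymphatic vessels make. They are hard to count, because the table lists them in 8 rows that include near-identical copies and unassembled scaffolds. Of the 100-base windows of the chromosomal Ccl21a row, 50.3% also occur in transcripts of other genes, and all windows of the chromosomal Ccl21b row do. Names of several such rows differ between the deposited table and GENCODE release 21. The only row tested was Ccl21a on a scaffold (ENSMUSG00000095320), at 13.3, 66.0 and 20.7 CPM in KO and 10.8, 4.12 and 2.53 CPM in WT. KO libraries were above WT libraries, but KO replicate 2 stood far above all the others. On the log2 scale the difference was 2.51 (SE 0.67; edgeR adjusted p = 0.201) and 1.55 without KO replicate 2. Summed over the 8 rows, the values were 13.6, 68.7 and 24.9 CPM in KO and 11.6, 5.09 and 2.82 CPM in WT. The 6 lymphatic endothelial markers summed to 151 to 245 CPM in KO and 188 to 215 CPM in WT, with none at 0 in every library, and their part in the Ccl21a value was not tested. Ccl19 on chromosome 4 had 2, 1 and 66 counts in KO and 3, 0 and 1 in WT, so its signal lay in KO replicate 3.

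Cxcr3 marks activated T cells and natural killer (NK) cells, and its ligands Cxcl9, Cxcl10 and Cxcl11 are induced by interferons. The receptor (ENSMUSG00000050232, chrX:101731535-101734269, minus strand, GRCm38) stood at 18.3, 21.4 and 17.2 CPM in KO and 27.9, 41.5 and 28.4 CPM in WT. No KO library reached the lowest WT library. The means were 18.9 ± 2.19 and 32.6 ± 7.69 CPM (SD, n = 3 each). On the log2 scale it differed by -0.78 (SE 0.18, 95% interval -1.19 to -0.37; edgeR adjusted p = 0.148).

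Cxcl10 (ENSMUSG00000034855, ending at base 92348889 of chromosome 5, next to the promoter shown above) was at 202, 166 and 221 CPM in KO and 331, 477 and 253 CPM in WT. The groups did not overlap, and WT replicate 2 was the highest. The log2 fold change was -0.85 (SE 0.22; edgeR adjusted p = 0.194), and -0.58 without WT replicate 2. Cxcl11, at a far lower level, gave 4.65, 5.17 and 8.39 CPM in KO and 11.7, 19.0 and 8.12 CPM in WT. KO replicate 3 lay just above WT replicate 3. It had a log2 fold change of -1.09 (SE 0.34; edgeR adjusted p = 0.266). Exons of Gm2673 overlap 41.7% of the Cxcl11 exon bases, so its count is uncertain, and GENCODE marks the Cxcl11 gene as a polymorphic pseudogene.

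Cxcl9 did not follow the same pattern of libraries. It was at 192, 211 and 346 CPM in KO and 265, 261 and 318 CPM in WT, with KO replicate 3 the highest of all 6. KO over WT gave a log2 fold change of -0.17 (SE 0.22, 95% interval -0.66 to 0.32; edgeR adjusted p = 0.850), and -0.48 without KO replicate 3. Whether Cxcl9 and Cxcl10 differed in their change was not tested.

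The transcription factors that relay interferon were listed among 41 inducers of chemokine genes. Of 38 tested, 12 had lower values in KO at an unadjusted p under 0.05 and 0 had higher ones, against 6.08% and 5.23% of all genes, and 0 passed adjustment. Irf7, which amplifies the type I interferon response, stood at -1.29 on the log2 scale (SE 0.31), and Stat2 at -0.84 (SE 0.19). Irf1 stood at -0.29 (SE 0.16) and did not meet that threshold. Ifng, the interferon of T cells and NK cells, was scarce, with mean CPM of 1.54 ± 0.393 for KO and 2.61 ± 0.659 for WT (SD, n = 3 each), and exons of Gm49751 overlap 25.9% of its exon bases. Its log2 fold change of -0.75 (SE 0.33) was among the 12. The inflammatory inducers Tnf at -0.32 (SE 0.25) and Il1b at 0.03 (SE 0.27) did not meet the threshold.

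Ccr1 is carried by monocytes and neutrophils and binds Ccl3 and Ccl5. Ccr1 was at 132, 135 and 108 CPM in KO and 152, 147 and 144 CPM in WT, without overlap but close, with a log2 fold change of -0.24 (SE 0.12; edgeR adjusted p = 0.501).

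The ligand Ccl5, made by T cells and NK cells, gave 59.3, 58.9 and 118 CPM in KO and 99.1, 177 and 133 CPM in WT. KO replicate 3 lay within the WT range. The log2 fold change was -0.79 (SE 0.30; edgeR adjusted p = 0.351), and -1.21 without KO replicate 3. Its unadjusted p was under 0.05 in 3 of the 6 fits without a library. The macrophage ligands Ccl3 and Ccl4 stood at -0.11 (SE 0.24) and -0.39 (SE 0.29). Ccl6 and Ccl9, myeloid ligands abundant in mice, stood at 0.11 (SE 0.20) and -0.02 (SE 0.15). For Ccl9 the 95% interval ran from -0.35 to 0.32, which leaves little room for a large difference.

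Cxcr6 belongs to tissue-resident and effector T cells and NK T cells, and Cxcl16 is its membrane-bound ligand on macrophages. Cxcr6 (chr9:123806475-123811760, plus strand, GRCm38) was at 15.6, 16.9 and 10.1 CPM in KO and 22.8, 22.7 and 22.04 CPM in WT. The WT libraries were almost equal, and every KO library was lower. KO over WT gave a log2 fold change of -0.67 (SE 0.19; edgeR adjusted p = 0.235). Cxcl16 stood at 273, 244 and 299.9 CPM in KO and 341, 349 and 291.5 CPM in WT. Its log2 fold change was -0.26 (SE 0.13; edgeR adjusted p = 0.5), with an overlap between KO replicate 3 and WT replicate 3. Zmynd15 exons overlap 18.3% of the Cxcl16 exon bases.

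Beside these lymphocyte receptors, the 13 T cell markers summed to 234 to 278 CPM in KO and 371 to 465 CPM in WT, and all 13 had lower values at an unadjusted p under 0.05. The 10 NK cell markers summed to 121 to 187 CPM in KO and 231 to 348 CPM in WT, with 8 of 10 lower by that rule. Over all genes tested that share was 6.08%. No marker of either list was at 0 in every library. The part of these lists in the values of Cxcr3, Cxcr6 and Ccl5 was not tested.

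**Figure D3:**
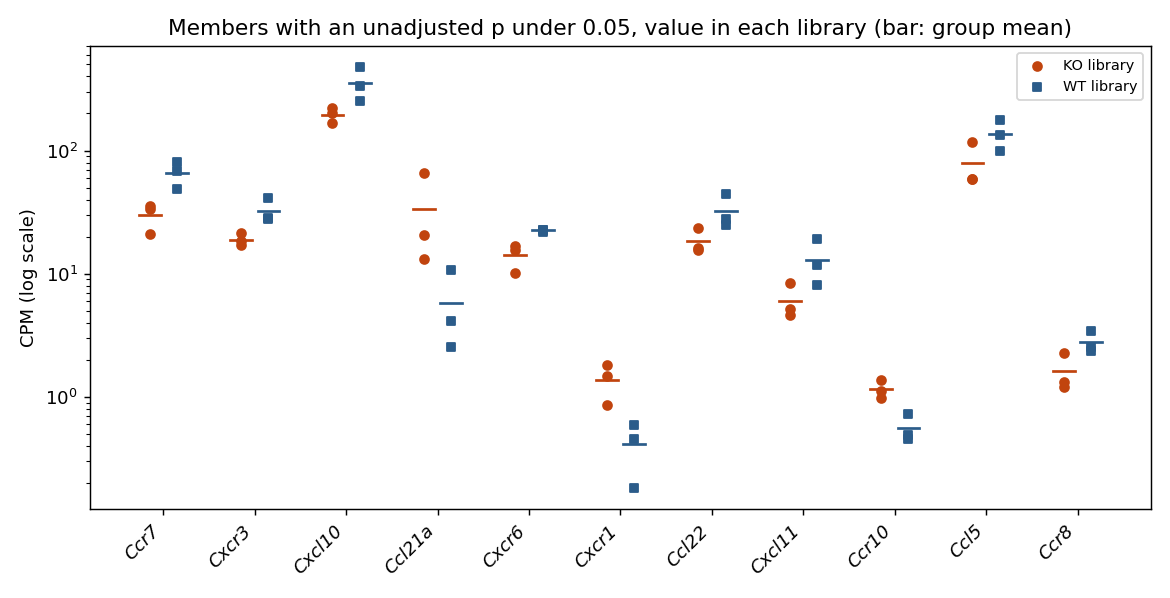
CPM in each library (log axis) of members with an unadjusted p under 0.05, ordered by that p, circles for KO and squares for WT with bars at the group means. Ccr7, Cxcr3, Cxcl10, Cxcr6, Ccl22 and Ccr8 have every KO library below WT, whereas Cxcl11 and Ccl5 overlap.

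Ccl17 and Ccl22 call regulatory and type 2 helper T cells through Ccr4, and both are products of dendritic cells. Ccl22 (chr8:94745590-94751699, plus strand, GRCm38) was at 23.5, 15.5 and 16.1 CPM in KO and 28.0, 25.1 and 44.7 CPM in WT. The groups were apart, with KO replicate 1 close to WT replicate 2. On the log2 scale the difference was -0.83 (SE 0.24; edgeR adjusted p = 0.245), and -0.53 without WT replicate 3. Ccl17, its neighbour on the chromosome, stood at 4.70, 2.05 and 2.24 CPM in KO and 1.41, 1.94 and 2.24 CPM in WT. Its log2 fold change was 0.68 (SE 0.39; edgeR adjusted p = 0.569), with KO replicate 1 apart from the rest. Cx3cl1 lies between the pair.

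Ccr4 itself had a log2 fold change of 0.06 (SE 0.38) at 1.76 to 5.01 CPM. Ccr8, found on regulatory T cells, was scarce, at 2.30, 1.33 and 1.21 CPM in KO and 2.55, 2.36 and 3.45 CPM in WT. Its libraries did not overlap, and the log2 fold change was -0.80 (SE 0.34; edgeR adjusted p = 0.427). Its unadjusted p was under 0.05 in 2 of the 6 fits that left out a library. It was above 0.05 with upper quartile factors, library size alone, DESeq2 or the replicate block, where the adjusted p was 0.547 by edgeR. Ccl1, a ligand of Ccr8 but not said here to be the only one, had 1 to 15 counts a library and was not tested.

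Ccr2 draws inflammatory monocytes out of the marrow, and Ccl2, Ccl7, Ccl8 and Ccl12 are counted among the monocyte-attracting ligands. Ccr2 stood at 397, 524 and 208 CPM in KO and 555, 526 and 350.0 CPM in WT. KO replicate 3 was far below the others. The log2 fold change was -0.34 (SE 0.31, 95% interval -1.04 to 0.36; edgeR adjusted p = 0.752), and -0.05 without KO replicate 3. Ccl2 gave 103, 78.5 and 136 CPM in KO and 101, 165 and 69.7 CPM in WT, with a 95% interval of -0.76 to 0.60. Ccl8 stood at -0.21 (SE 0.30) and Ccl7 at -0.16 (SE 0.30). Ccl12 was at 43.6, 29.1 and 36.4 CPM in KO and 44.4, 101 and 34.8 CPM in WT. Its log2 fold change of -0.73 (SE 0.35) became -0.12 without WT replicate 2. The 9 monocyte markers summed to 4339 to 4872 CPM in KO and 4486 to 5914 CPM in WT. Most of each sum was Fn1, at 3948, 3124 and 3582 CPM in KO and 3026, 3454 and 3081 CPM in WT. The sums therefore say little of the other markers. All KO libraries lay below all WT libraries for 5 of the 9 and above them for 1, against 9.01% and 7.83% of all genes. Of the 9 markers, 5 had lower values and 1 a higher value at an unadjusted p under 0.05. The 12 macrophage markers summed to 4412 to 5616 CPM in KO and 4743 to 7499 CPM in WT, with 2 lower and 1 higher. Over all genes tested the shares were 6.08% lower and 5.23% higher.

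Cx3cr1, the receptor of patrolling monocytes and resident macrophages, also read low in KO replicate 3, at 53.9 CPM against 93.4 and 109 CPM in KO replicates 1 and 2. WT replicate 3 at 61.7 CPM lay well under WT replicates 1 and 2 at 132 and 147 CPM. It had a log2 fold change of -0.41 (SE 0.33; edgeR adjusted p = 0.728). Its ligand Cx3cl1, a membrane-anchored protein of endothelium, varied little, at 40.1 to 45.6 CPM in KO and 37.1 to 38.7 CPM in WT, a log2 fold change of 0.15 (SE 0.10).

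Neutrophils are attracted by Cxcl1, Cxcl2, Cxcl3 and Cxcl5 through Cxcr2. Cxcl1 stood at 32.1, 34.4 and 58.0 CPM in KO and 40.1, 20.8 and 27.3 CPM in WT, a log2 fold change of 0.50 (SE 0.28; edgeR adjusted p = 0.561). Cxcl2, Cxcl3 and Cxcl5 stood at 0.29 (SE 0.23), -0.16 (SE 0.21) and -0.18 (SE 0.18). Cxcr2 was at 75.3, 85.4 and 76.6 CPM in KO and 88.9, 58.4 and 76.8 CPM in WT, with a 95% interval of -0.27 to 0.43. In all of these genes the groups overlapped.

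Cxcr1, whose role in mice is less settled, had only 15, 29 and 39 counts in KO and 11, 3 and 8 in WT. All KO libraries were above WT, and the log2 fold change was 1.72 (SE 0.50; edgeR adjusted p = 0.236). The 9 neutrophil markers summed to 674 to 1035 CPM in KO and 675 to 744 CPM in WT, with none at 0 in every library. Of these 9, 2 were higher at an unadjusted p under 0.05, against 5.23% of all genes. Their part in the Cxcr1 value was not tested.

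Cxcl12 retains stem cells and lymphocytes in marrow and is made by fibroblasts and other stromal cells, and Cxcr4 is its receptor. Cxcl12 was at 1882, 2444 and 1914 CPM in KO and 2795, 2892 and 2309.9 CPM in WT. KO replicate 2 overlapped WT replicate 3. KO over WT gave a log2 fold change of -0.36 (SE 0.17, 95% interval -0.75 to 0.04; edgeR adjusted p = 0.493). Cxcr4 stood at 98.7, 133 and 225 CPM in KO and 192, 127 and 155 CPM in WT. KO replicate 3 was the highest of all, and the fitted value of -0.05 (SE 0.28) became -0.45 without it. The 9 fibroblast markers summed to 35905 to 46423 CPM in KO and 43846 to 55148 CPM in WT.

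Among the atypical receptors, Ackr3 scavenges Cxcl12 and had mean CPM of 34.8 ± 4.99 for KO and 40.8 ± 4.78 for WT (SD, n = 3 each). On the log2 scale it differed by -0.23 (SE 0.14). Ackr1, the Duffy antigen of venules, and Ackr2, which scavenges inflammatory CC ligands, stood at 0.12 (SE 0.26) and -0.16 (SE 0.43). Ackr4, which removes Ccl19 and Ccl21, was scarce at 0.409 to 1.90 CPM and had a log2 fold change of -0.94 (SE 0.50). The groups overlapped in all 4, and Cadm3 exons overlap 25.7% of the Ackr1 exon bases.

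Cxcl13 builds B cell follicles through Cxcr5. It read 10.6, 6.19 and 2.52 CPM in KO and 1.74, 1.70 and 11.9 CPM in WT. KO replicate 1 and WT replicate 3 were high. Its log2 fold change of 0.32 (SE 0.76) became 1.89 without WT replicate 3, the library in which B cell and plasma cell genes were high, and the part of those cells was not tested. Cxcr5 stood at -0.43 (SE 0.25). Xcl1, made by NK and CD8 T cells, was at 2.70, 7.42 and 7.65 CPM in KO and 7.61, 15.04 and 4.83 CPM in WT. Its receptor Xcr1, which marks cross-presenting dendritic cells, stood at -0.44 (SE 0.36). Gm20743 exons overlap 18.7% of the Xcl1 exon bases.

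Among the mucosal and skin axes, Ccr10, which homes T cells to skin, had 17, 27 and 24 counts in KO and 9, 12 and 8 in WT, without overlap. It had a log2 fold change of 1.05 (SE 0.39; edgeR adjusted p = 0.347). With each library left out its unadjusted p was under 0.05 in 2 of 6 fits, and by DESeq2 it was above 0.05. The Ccr10 ligand Ccl27a on chromosome 4 stood at 0.43 (SE 0.27), and 26.5% of its 100-base windows occur in transcripts of other genes. The gut axis of Ccl25 and Ccr9 stood at 0.04 (SE 0.31) and -0.72 (SE 0.37). Exons of other genes overlap 21.5% of the Ccr9 exon bases. Ccr6 stood at -0.26 (SE 0.32), and its ligand Ccl20 had 5, 2 and 3 counts in KO and 0 in each WT library, which allows up to 3 counts a library. The eotaxins Ccl11 and Ccl24, which recruit eosinophils through Ccr3, stood at 0.10 (SE 0.24) and 0.29 (SE 0.39) and Ccr3 at 0.36 (SE 0.40). Cxcl14, an orphan among these ligands, stood at 0.01 (SE 0.32) with KO replicate 1 the highest at 116 CPM.

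In 7 rows every library was at or under 3 counts, the limit that a count of 0 allows: Ccl26, Ccl27b, Cxcl17, both rows of Ccl21b and a scaffold row each of Ccl19 and Ccl27a. Ccl27b and Cxcl17 had 1 or 2 counts in some libraries, and the scaffold row of Ccl19 had 2 counts in KO replicate 3. All 100-base windows of the chromosomal Ccl21b row and 97.9% of those of Ccl27b also occur in transcripts of other genes, so their low counts do not show how much of their RNA was present. Another 9 rows rose above that limit in some library but had too few counts to be tested: Ccl1, Ccl20, Ccl28, Cxcl15, Ccl19, both rows of Ccl21c, the chromosomal row of Ccl21a and a scaffold row of Ccl27a. Such limits cover counting error alone.

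Many of these genes lie side by side on the chromosomes. With gaps of under 500000 bases, 40 of the 60 rows placed on chromosomes fell into 10 clusters. The cluster of Cxcl9, Cxcl10 and Cxcl11 (chr5:92321347-92365485) had lower fitted values for 3 of 3 tested members, against 48.8% of all genes, with a median log2 fold change of -0.85. Cxcl9 was the member that did not reach an unadjusted p under 0.05. The neighbouring cluster of Cxcl1, Cxcl2, Cxcl3, Cxcl5 and Cxcl15 (chr5:90759360-90905938) had lower fitted values for 2 of 4 and a median of 0.06. On chromosome 11 the monocyte-attracting cluster from Ccl2 to Ccl1 (chr11:82035571-82305690) had a median of -0.16 over 5 tested. The cluster from Ccl5 to Ccl4 (chr11:83525778-83664683) had a median of -0.11 over 5 tested.

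**Figure D4:**
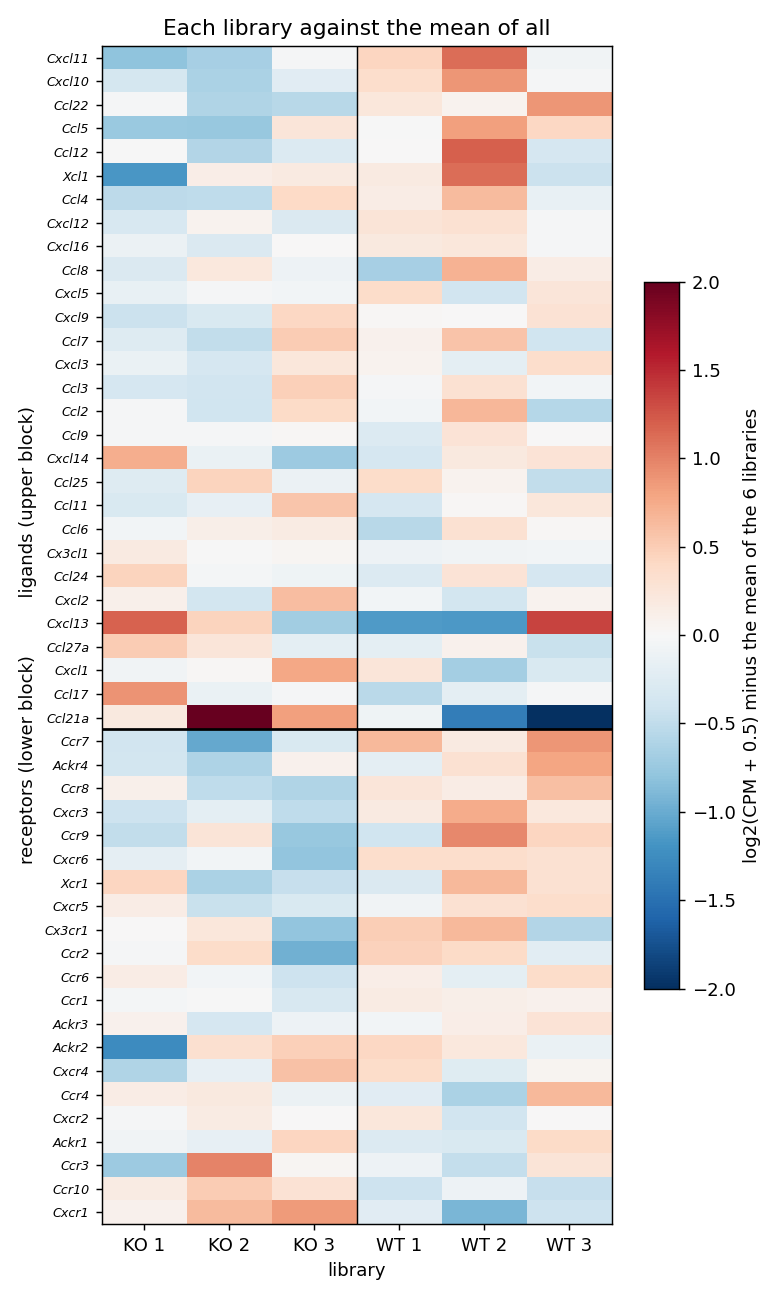
Colour gives log2(CPM + 0.5) of tested members in each of the 6 libraries, minus its mean over the libraries, with ligands above and receptors below the black line. The columns show that libraries of 1 genotype differ from each other, as for Ccr2 and Cx3cr1 in KO replicate 3 and Ccl12 and Xcl1 in WT replicate 2.

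Signalling below the receptors was examined in a list of 43 genes for G proteins, kinases, arrestins and regulators of the actin skeleton. All 43 were tested, 18 had lower values in KO at an unadjusted p under 0.05 and 0 had higher values, against 6.08% and 5.23% of all genes. None passed adjustment. The median log2 fold change was -0.25. Among those with the smallest p were Tiam1 (-0.46), Prex1 (-0.57), Was (-0.49), Grk6 (-0.32), Elmo1 (-0.39) and Pik3cd (-0.40). Prex1, Tiam1 and Elmo1 promote activation of the GTPase Rac, Was drives actin branching, and Grk6 is a kinase that desensitises receptors. Many are expressed mainly by leukocytes, and the list summed to 6266 to 6608 CPM in KO and 7333 to 8226 CPM in WT.

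Genes of the chemokine system outside the name rule gave 5 of 17 tested with lower values at an unadjusted p under 0.05 and 0 with higher values, against 6.08% and 5.23% of all genes, and 0 passed adjustment. The 5 were Dpp4, a peptidase that trims chemokines (-0.90, SE 0.16), Gpr35 (-0.42), Cd74, a receptor of the cytokine Mif (-0.51), the oxysterol receptor Gpr183 (-0.60) and the chemerin receptor Cmklr1 (-0.36).

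**Figure D5:**
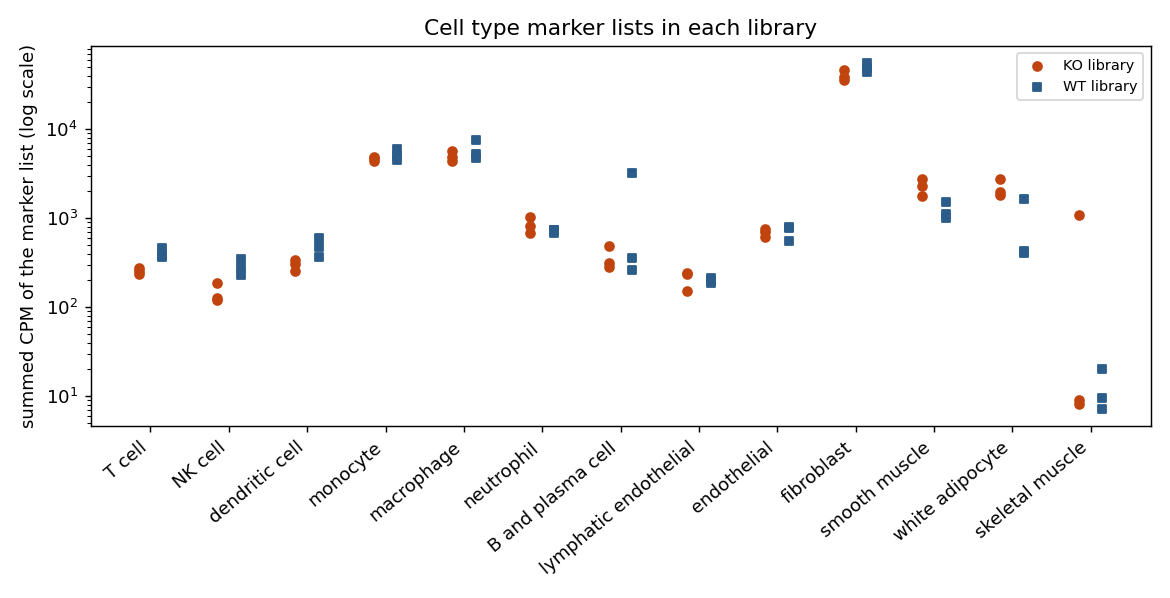
Summed CPM (log axis) of cell type marker lists in the 3 KO libraries (circles) and 3 WT libraries (squares). Lists of mast cells and basophils, brown adipocytes, platelets and megakaryocytes, and red cells are not drawn. The T cell, NK cell and dendritic cell sums are lower in every KO library than in any WT library. Fscn1 is the largest part of the dendritic cell sum. The monocyte, macrophage and neutrophil sums overlap, and Fn1 makes up most of the monocyte sum. Single libraries stand apart for B and plasma cells and for skeletal muscle.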

How the data were processed

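Poly-T selected aortic RNA was sequenced in 6 libraries, and the deposited table holds raw whole-number counts of reads per gene. Per the submitters' processing notes, HISAT2 2.0.5, featureCounts 1.5.0-p3 and GRCm38 were used. The sources used here do not give the strand setting, the handling of multi-mapping reads or the annotation release, so overlapping genes and near-identical copies are uncertain. The labels assign 3 libraries to KO and 3 to WT.

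Genes were kept by filterByExpr (16237), scaled by TMM and tested with edgeR 4.0.16 in R 4.3.3, with limma 3.58.1 and DESeq2 1.42.0 as alternatives. The SE is the log2 fold change divided by the square root of F. The biological coefficient of variation was 19.6%. On simulated counts 15969 genes were tested, and the changed genes were drawn only from those with a mean over 1 CPM. Of these, edgeR recovered 10.4%, 50.7% and 95.5% when changed 1.5-, 2- and 4-fold, with 12 false calls. Recovery of scarcer genes was not examined. Positions, exon lengths and overlaps came from GENCODE release 21. Named genes were the members, up to 8 genes by smallest p of each list of other genes, and Ifng, Tnf, Il1b, Irf1 and Irf7. Values of a few genes, among them a receptor also left out of the figures, are not reported here but are included in counts, sums and medians. Members were fixed by gene name, and the lists of other genes were chosen with earlier results of these data known. Other settings varied scaling, filter, test, a replicate block and the libraries used. Figures were drawn with matplotlib 3.10.9.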

Additional observations from a re-analysis of the deposited data

How the results depend on the processing

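The number of genes called was 2, and 451 by DESeq2, 644 with no filter on low counts, and 0 by limma-voom or with the replicate block. Members called numbered 5 by DESeq2 and 9 with no filter (2.18% of all genes there), where Ccl5, Ccl21a, Cxcr6 and the Ccl19 row on chromosome 4 joined the 5. With no filter 6 members had higher values at an unadjusted p under 0.05 and the ligand median was 0.01. With at least 1 CPM in 3 libraries 1 member was higher by that p and 2 had KO above WT. Both replicates numbered 3 were left out together, a choice made after seeing the data. That gave 206 calls (1.26%), 2 of them members (Cxcl11 at -1.64, Cxcl13 at 2.28), with 14 members lower at an unadjusted p under 0.05, 9 with KO above WT and 21 below. With each library left out in turn, calls over all genes ranged from 0 to 155 (the latter without WT replicate 3). Members called stayed at 0 each time. Members with KO below WT ranged from 8 to 15 and above WT from 4 to 8, against 7 and 4. With fewer libraries the groups of any gene lie apart more readily. The shares of all genes at an unadjusted p or without overlap are not given for the settings in this section. Member counts by those rules can therefore not be read against all genes. The ligand median ranged from -0.192 to 0.071 and the receptor median from -0.38 to -0.24. Signs turned, with ranges over those 6 fits, for Ackr1 (-0.10 to 0.40), Ackr2 (-0.48 to 0.23), Ccl25 (-0.22 to 0.27), Cxcl13 (-0.24 to 1.89), Ccl11 (-0.22 to 0.26), Ccl6 (-0.09 to 0.31), Ccl9 (-0.14 to 0.13), Ccl3 (-0.46 to 0.05), Ccl8 (-0.50 to 0.15), Ccl7 (-0.52 to 0.12), Ccl2 (-0.33 to 0.31), Cxcl14 (-0.47 to 0.29), Ccr4 (-0.22 to 0.59), Cxcr4 (-0.45 to 0.18), Ccr3 (-0.22 to 0.69) and Cxcr2 (-0.07 to 0.23). Other signs that turned were Ccl9 with library size alone (0.02), Cxcl14 by limma-voom (-0.09) and with the replicate block (-0.10), and, without both replicates 3, Ccl25 (-0.09), Ccl11 (-0.08) and Ccr6 (0.09). The cause was not tested. The replicate numbers are only numbers: same-numbered libraries deviated with correlations of -0.104 to -0.0789, and the block gave 10 members lower at an unadjusted p under 0.05. Genes under about 1 CPM rest on few counts and limit what could be called.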
